A study of Arabidopsis thaliana with 22 samples.

Results

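The 26S proteasome is the protease that breaks down ubiquitin-tagged proteins in plant cells. Its 20S core is a barrel of outer alpha rings, which gate the entry, and inner beta rings, 3 of whose subunit types carry the active sites: beta1 (caspase-like, PBA), beta2 (trypsin-like, PBB) and beta5 (chymotrypsin-like, PBE). The 19S regulatory particle caps the core with a ring of RPT ATPases that unfold substrates and with RPN non-ATPase subunits that bind and remove ubiquitin and hold the particle together. In Arabidopsis most subunit types are encoded by a pair of paralogous genes. The genes are known for rising together when the proteasome is inhibited, and proteasomes can themselves be removed by autophagy.

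The transcripts described here were taken from a fixed list of AGI identifiers of core and regulatory subunits, and all 42 were found among the 32833 genes of the table. They comprised 12 alpha, 11 beta, 10 RPT and 9 RPN genes. RefSeq names 5 of them only by protein family, and these are given by identifier, namely AT1G79210 (an alpha-type gene), AT3G26340 (beta-type), AT1G45000 and AT5G20000 (AAA-type ATPases) and AT5G23540 (Mov34/MPN/PAD-1 family). Whole Arabidopsis seedlings of 7 days were profiled by QuantSeq, which sequences the 3′ ends of polyadenylated transcripts, in 22 libraries. WT (Col-0), *baf1* (a T-DNA insertion line of the F-box gene BAF1) and *bes1-D* (a gain-of-function mutant of the brassinosteroid-activated transcription factor BES1, brought into Col-0) each gave 4 libraries without brassinazole (BRZ0). With 250 nM brassinazole, an inhibitor of brassinosteroid synthesis (BRZ250), WT and *bes1-D* gave 3 libraries each and *baf1* gave 4. Each mutant is 1 line. Nothing in the labels says that replicates came from separate cultures, so p-values measure the spread between these samples, which may be technical.

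The estimated depth ran from 2.12 to 5.16 M reads per library. BAF1 transcripts lay between 0.06 and 13.5 normalized reads in the 8 *baf1* libraries and between 202 and 399 in the 14 others. The green tissue markers summed to between 52840 and 99998 normalized reads, lowest in *bes1-D* BRZ250, and the root markers to between 444 and 741. Seed storage transcripts summed to at most 291 in WT, at most 16 in *bes1-D* and up to 1752 in *baf1* BRZ250 replicate 4. WT BRZ0 replicate 5 stood apart from its group for many of the subunit genes, as described below.

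All 42 genes were expressed. Their mean over the 22 libraries ran from 36.4 normalized reads for RPT5b, an ATPase gene, to 678 for PAF1, an alpha-ring gene, with a median of 236. Because QuantSeq reads come from the transcript end, levels of different genes can be set side by side without dividing by length. The 2 most abundant, PAF1 (678 ± 95.2, SD over 22 libraries) and PAG1 (659 ± 90.3), are both alpha subunits. They were followed by RPN6 (465 ± 126), a lid subunit of the regulatory particle, by RPT3 (441 ± 30.3) and by PBD1 (429 ± 66.6). The third place of RPN6 came from the *bes1-D* libraries, since in WT BRZ0 its mean of 378 lay below those of PBD1 (463), RPT3 (441), AT5G23540 (410) and RPT2a (382). At the low end stood RPT5b (36.4 ± 8.00), AT3G26340 (53.1 ± 9.90) and PAF2 (80.8 ± 13.2). Of the 41 pairs of neighbours in this order, 37 differed by less than the larger of their SDs over libraries, and the 4 larger gaps lay between PAG1 and RPN6, between RPN5a and PAA1, between PAF2 and AT3G26340, and between AT3G26340 and RPT5b.

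The sum of the 42 transcripts lay between 9368 and 11444 normalized reads, 0.258% to 0.315% of all reads. Its mean was 10125 ± 900 in WT BRZ0, 10385 ± 826 in WT BRZ250, 10551 ± 330 in *baf1* BRZ0, 10481 ± 695 in *baf1* BRZ250, 10619 ± 445 in *bes1-D* BRZ0 and 10980 ± 780 in *bes1-D* BRZ250 (SD, n = 4, 3, 4, 4, 4 and 3). The ranges of all 6 groups overlapped, but WT BRZ0 met those of the mutants without BRZ only through its replicate 5 (11428). The other 3 WT BRZ0 libraries (9368 to 9915) lay below every library of *baf1* BRZ0 (10120 to 10830) and of *bes1-D* BRZ0 (10046 to 11132). The alpha genes summed to 2864 to 3674, the beta genes to 2457 to 2995, the RPT genes to 1920 to 2326 and the RPN genes to 2116 to 2848 normalized reads. The libraries with the lowest and next lowest sum, WT BRZ0 replicate 1 and WT BRZ250 replicate 1, had estimated depths of 5.16 and 4.7 M reads, while the 4 libraries with the highest sums (11373 to 11444), which were WT BRZ0 replicate 5, *baf1* BRZ250 replicate 4 and *bes1-D* BRZ250 replicates 3 and 5, had depths of 2.63, 2.74, 3 and 3.62 M. Over the 22 libraries the mean log2 level of the 42 genes had a Pearson r of -0.66 with log2 depth, given as a description, since depth also differs between the groups.

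**Figure D1:**
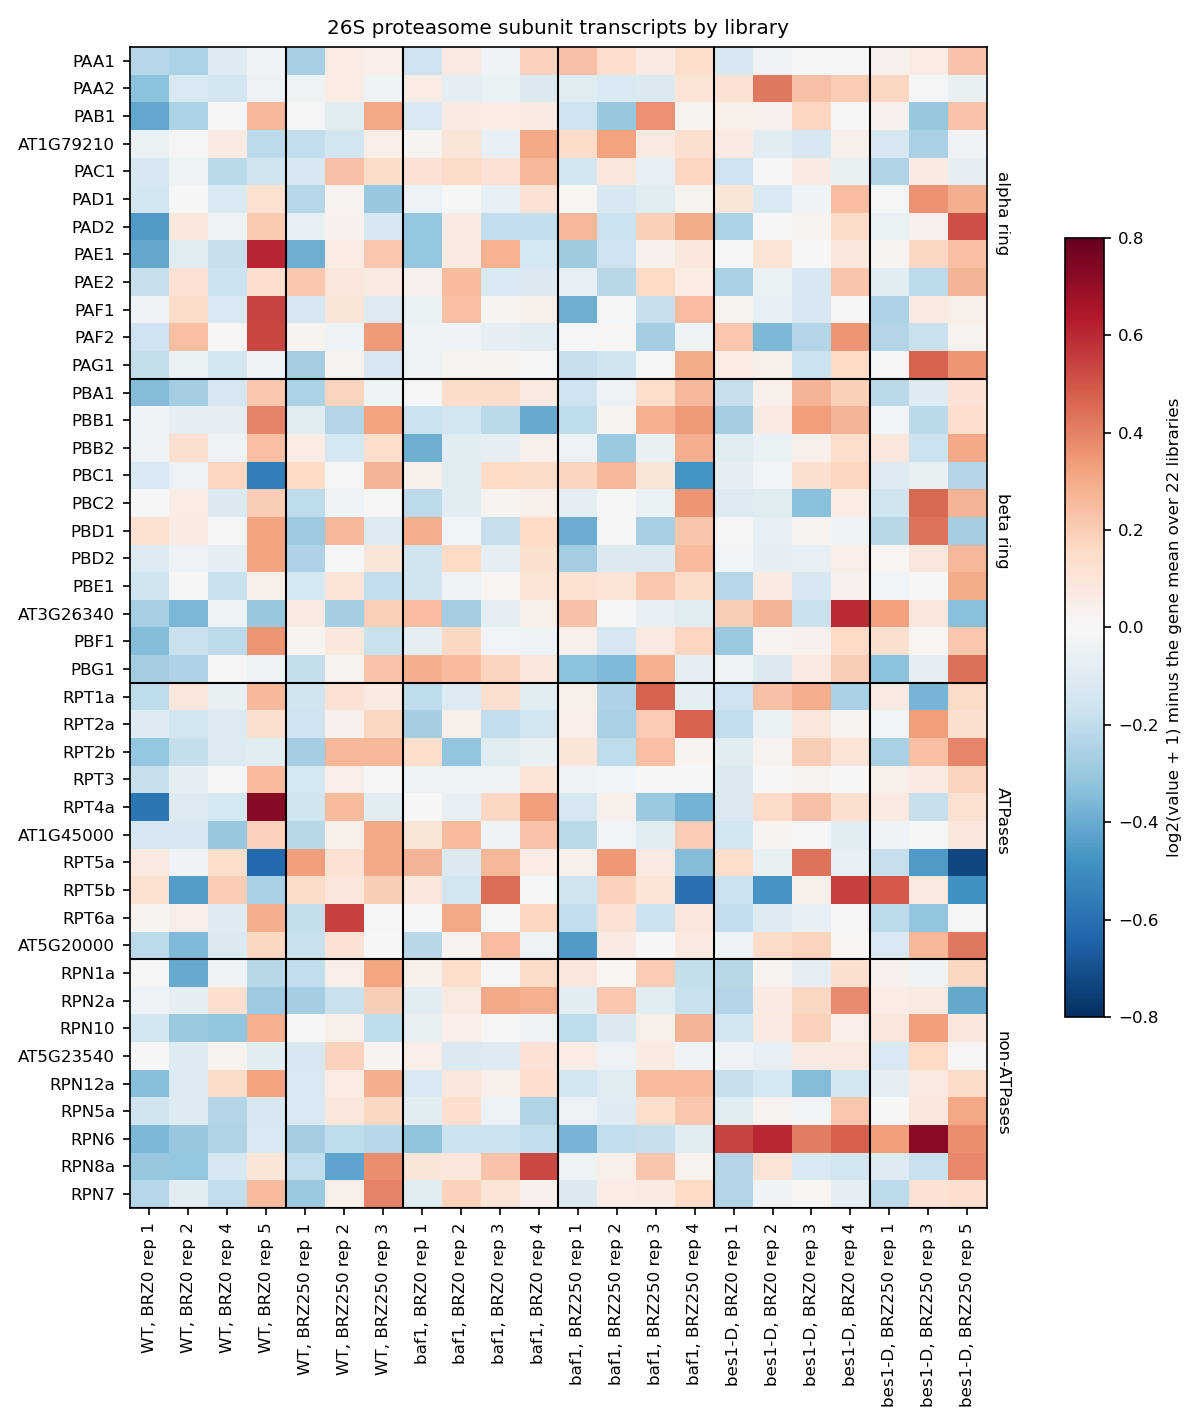
Level of each of the 42 subunit genes (rows, by subunit class) in each of the 22 libraries (columns, by group), as log2(value + 1) minus the mean of that gene over all libraries. RPN6 is high in all 7 *bes1-D* libraries, WT BRZ0 replicate 5 holds the highest value of 9 genes, and RPT5a is low in 5 libraries of 3 genotypes.

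The subunit genes varied less between groups than the genes with means in the same range (36.4 to 678 normalized reads). Within that range the genes were not matched in level, so a part of level in this difference was not tested. The ratio of the highest to the lowest group mean had a median of 1.23 over the 42 genes, and of 1.36 over the 10070 genes of the table with means in the same range. It was above 1.5 for 2 subunit genes (4.76%), RPN6 and RPT5a, against 28.4% of the genes in that range. The coefficient of variation within groups had a median of 12.3% for the subunit genes and 14.4% for that range. These are descriptions, since genes are not replicates.

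Across the 22 libraries the subunit genes tended to move together. The log2 level of each was compared with the mean of the other 41, and Pearson's r had a median of 0.44 and was positive for 37 genes. The highest values belonged to PBA1 (0.83), PAE1 (0.77), RPN7 (0.77) and RPT3 (0.76). The 5 negative ones were RPT5a (-0.51), PBC1 (-0.28), RPT5b (-0.17), AT1G79210 (-0.06) and AT3G26340 (-0.05). An r above 0.5 was found for 17 subunit genes and for 8.99% of the other genes, and the median r over all genes was 0.09. The points share the 6 groups and the depth of each library, and the mean level itself moved with depth (r of -0.66, above), so these values describe the series and do not test co-regulation.

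Outside the complex, the 10 genes whose profile over the 22 libraries was most like the mean of the subunit genes were ranked among 16289 genes. Of these, 5 encode ribosomal proteins. They were STV1 (ribosomal protein L24, r = 0.93), AT5G47930 (a zinc-binding ribosomal protein, 0.90), BBC1 (ribosomal protein L13, 0.90), AT3G60770 (ribosomal protein S13/S15, 0.87) and AT3G53870 (ribosomal protein S3, 0.86). The others were AT1G73230 of the nascent polypeptide-associated complex (0.92), AT5G11560 (annotated only as a catalytic protein, 0.90), AT3G03920 of the H/ACA ribonucleoprotein complex (0.87), the GTP-binding protein AT1G30580 (0.87) and NOXY38 (0.87). Among 10 further proteasome subunit genes that are not in the list, RPN1B ranked highest at place 115 (r = 0.74).

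In 13 subunit types both paralogs were among the 42 genes, with coding sequences 76.8% to 94.4% identical. Second copies of other types, such as RPN1B, were measured but lie outside the list and are not counted here. No run of 50 bases from the last 500 bases of the transcripts occurred elsewhere in the genome for 40 of the 42 genes. The exceptions were the neighbouring genes RPT6a and AT5G20000, where 1.0% and 2.2% of such runs did, so their separate values are less certain. In 7 of the 13 pairs the more abundant copy exceeded the other more than 2-fold. The largest imbalances were those of PAF1 over PAF2 (8.40-fold, 86.0% to 91.2% of the pair over the 22 libraries), PBE1 over AT3G26340 (7.27-fold, 83.2% to 92.0%) and RPT5a over RPT5b (7.10-fold, 81.6% to 90.6%). RPT2a made up 74.8% to 84.4% of its pair with RPT2b. In 5 pairs the copies lay within 1.5-fold of each other, and PBC1 and PBC2 were level at 282 and 280 normalized reads. The PBC1 share was the least even between libraries. It ranged from 36.0% in *baf1* BRZ250 replicate 4 to 58.1%, a spread wider than that of the PAA, PAB, PAE and PBB pairs.

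**Figure D2:**
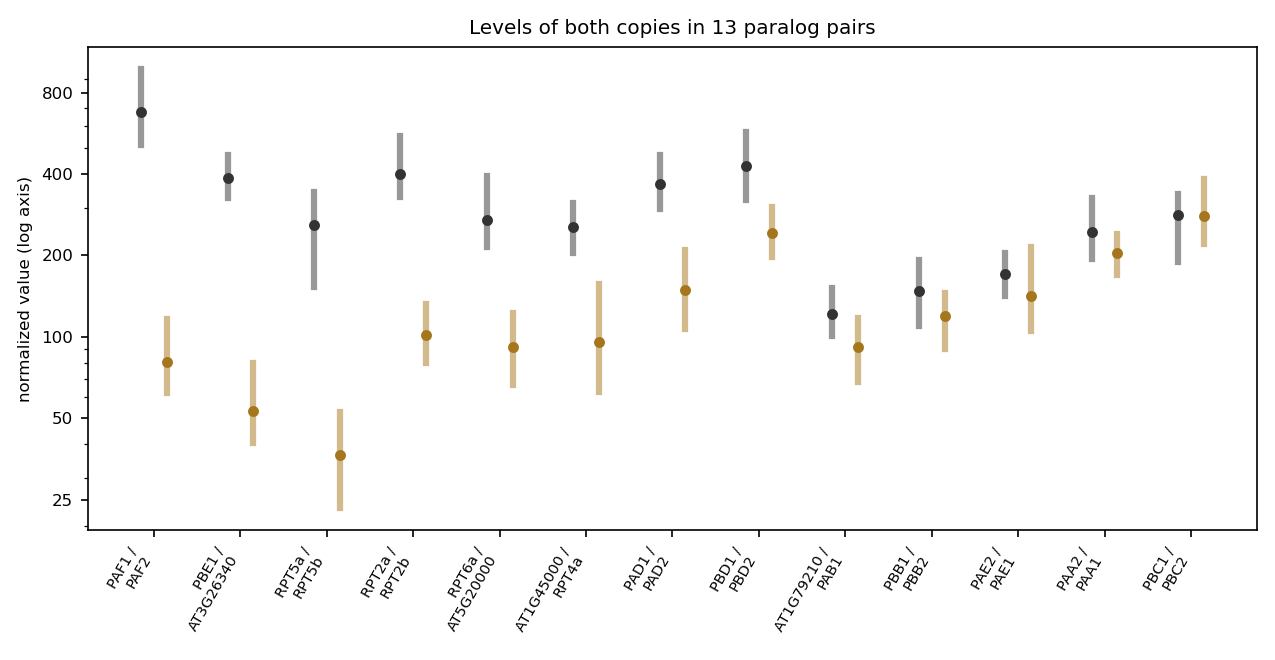
Levels of both copies in the 13 subunit types with both paralogs among the 42 genes, ordered by the ratio of their means. Points are means over 22 libraries, bars run from the lowest to the highest library, the more abundant copy is in dark grey and the other in brown, and the axis of normalized reads is logarithmic. PAF1 lies 8.40-fold above PAF2, while PBC1 and PBC2 coincide.

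Of the 5 active-site genes of the core, PBB1 and AT3G26340 were called in at least 1 comparison, as given below, and PBA1, PBB2 and PBE1 in none. For the caspase-like subunit PBA1 the libraries had 240, 253, 279 and 356 normalized reads in WT BRZ0, 305, 340, 339 and 322 in *baf1* BRZ0 and 270, 315, 371 and 350 in *bes1-D* BRZ0. Under BRZ250 they had 257, 347 and 299 in WT, 273, 297, 339 and 367 in *baf1* and 264, 285 and 331 in *bes1-D*. WT BRZ0 replicate 5 was highest in its group, and all groups overlapped.

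The trypsin-like subunit is encoded by PBB1 and PBB2. PBB1 had 143, 138, 138 and 192 in WT BRZ0, 129, 130, 125 and 109 in *baf1* BRZ0 and 120, 152, 183 and 176 in *bes1-D* BRZ0. Under BRZ250 its values were 136, 123 and 182 in WT, 126, 147, 177 and 184 in *baf1* and 143, 125 and 160 in *bes1-D*. Here *baf1* BRZ0 lay below WT BRZ0 in every library, with the fold change given below. PBB2 had 116, 129, 116 and 140 in WT BRZ0, 89.8, 111, 113 and 121 in *baf1* BRZ0 and 110, 114, 122 and 130 in *bes1-D* BRZ0. With BRZ250 it had 123, 107 and 130 in WT, 114, 95.7, 113 and 145 in *baf1* and 126, 104 and 146 in *bes1-D*. For PBB2 the ranges of the groups overlapped throughout.

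The chymotrypsin-like subunit PBE1 had 343, 383, 339 and 396 in WT BRZ0, 344, 373, 388 and 414 in *baf1* BRZ0 and 327, 401, 351 and 393 in *bes1-D* BRZ0. Under BRZ250 it had 348, 411 and 335 in WT, 417, 413, 446 and 426 in *baf1* and 378, 383 and 471 in *bes1-D*. All 4 *baf1* BRZ250 libraries were above the 3 of WT BRZ250, but the log2 difference of 0.23 ± 0.12 (SE) did not meet the criterion (limma adjusted p = 0.9). In this comparison *baf1* lay wholly above WT for 3 of the 42 genes and for 3.46% of all tested genes. Its weaker paralog AT3G26340 had 43.3, 40.3, 50.5 and 42.2 in WT BRZ0, 62.2, 42.8, 49.5 and 54.1 in *baf1* BRZ0 and 59.9, 63.3, 46.0 and 79.7 in *bes1-D* BRZ0. Its BRZ250 values were 55.0, 43.1 and 59.8 in WT, 61.6, 52.1, 49.9 and 49.2 in *baf1* and 65.9, 55.8 and 41.2 in *bes1-D*. The highest was *bes1-D* BRZ0 replicate 4. All groups overlapped, and the difference between *bes1-D* and WT without BRZ met the criterion (0.47 on the log2 scale, 1.38-fold).

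Among the regulatory subunits, the ubiquitin receptor RPN10 had 151, 136, 134 and 203 in WT BRZ0, 160, 173, 167 and 162 in *baf1* BRZ0 and 150, 176, 190 and 173 in *bes1-D* BRZ0. Under BRZ250 its values were 167, 172 and 145 in WT, 145, 154, 173 and 202 in *baf1* and 178, 210 and 177 in *bes1-D*. The *bes1-D* BRZ250 libraries were all above those of WT BRZ250, by 0.22 ± 0.16 on the log2 scale, which missed the criterion (limma adjusted p = 0.437). Here *bes1-D* lay wholly above WT for 2 of the 42 genes and for 16.3% of all tested genes. AT5G23540 varied little. It had 420, 392, 430 and 396 in WT BRZ0, 438, 389, 392 and 456 in *baf1* BRZ0 and 410, 402, 443 and 445 in *bes1-D* BRZ0. With BRZ250 it had 385, 480 and 429 in WT, 440, 408, 442 and 411 in *baf1* and 388, 470 and 425 in *bes1-D*. All of its values lay between 385 and 480.

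The ATPase genes RPT2a and RPT2b are a pair of which the first was the more abundant in every library. RPT2a had 369, 358, 368 and 435 in WT BRZ0, 329, 410, 346 and 357 in *baf1* BRZ0 and 347, 383, 424 and 405 in *bes1-D* BRZ0. Under BRZ250 it had 353, 407 and 445 in WT, 413, 332, 458 and 551 in *baf1* and 391, 502 and 435 in *bes1-D*. The highest value was that of *baf1* BRZ250 replicate 4. RPT2b had 80.8, 87.5, 92.6 and 94.4 in WT BRZ0, 111, 80.2, 93.6 and 96.0 in *baf1* BRZ0 and 94.5, 102, 115 and 108 in *bes1-D* BRZ0. Its BRZ250 values were 82.7, 120 and 121 in WT, 107, 86.8, 119 and 102 in *baf1* and 83.3, 118 and 132 in *bes1-D*. Each *bes1-D* BRZ0 library was above every WT BRZ0 library for RPT2b, with a log2 difference of 0.24 ± 0.13 that did not meet the criterion (limma adjusted p = 0.305). Without BRZ, *bes1-D* lay wholly above WT for 4 of the 42 genes and for 8.81% of all tested genes.

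Groups were then compared with limma on log2(value + 1) over all genes with a mean of at least 10 in the libraries compared. A gene was called at the criterion of the study, an unadjusted p-value under 0.05 with a fold change above 1.1, and a stricter call required a Benjamini-Hochberg adjusted p-value under 0.05. All 42 subunit genes passed the filter on low values in each comparison. Counts below are read against the share of all tested genes called the same way.

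**Figure D3:**
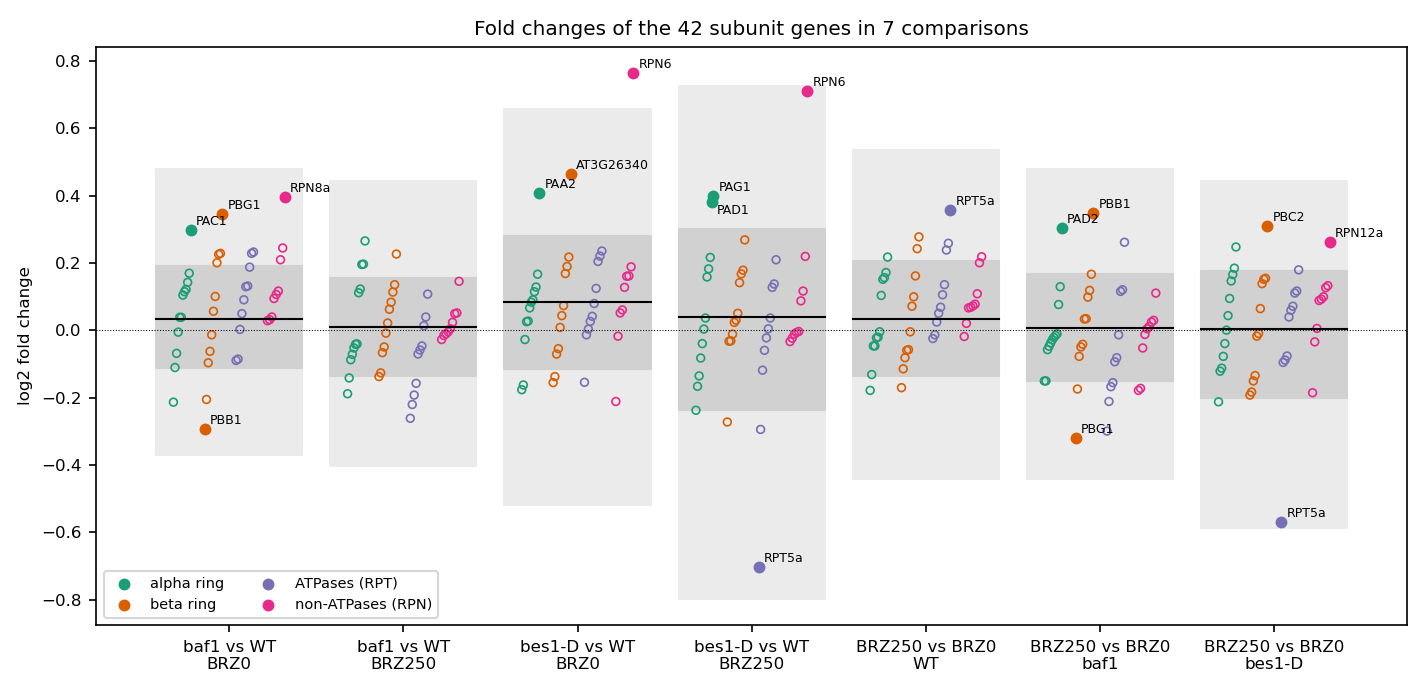
Fitted log2 fold change of each of the 42 subunit genes in the 7 comparisons of pairs of groups, coloured by subunit class. Filled and named points met the criterion, open points did not, the black line is the median of all tested genes, and the dark and light grey bands hold the middle 50% and 90% of them. RPN6 stands at 0.76 and 0.71 in the *bes1-D* comparisons and RPT5a at -0.70 and -0.57 in those with *bes1-D* BRZ250.

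Loss of BAF1 was compared with WT first. Without BRZ, 3 subunit genes were higher in *baf1* (PAC1, PBG1 and RPN8a) and 1 was lower (PBB1), that is 4 of 42 called against backgrounds of 6% of tested genes higher and 4.27% lower. None passed the stricter call, which 0.129% of genes did. The 42 log2 fold changes had a median of 0.10, against 0.04 over all genes. By class the medians were 0.07 for alpha, 0.06 for beta, 0.11 for RPT and 0.11 for RPN genes, and all 9 RPN genes had values above 0, as had 56.2% of all genes.

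The alpha-ring gene PAC1 had 324, 346, 306 and 318 normalized reads in WT BRZ0 and 385, 394, 385 and 428 in *baf1* BRZ0. The groups did not overlap, and the log2 difference was 0.30 ± 0.09 (SE, limma adjusted p = 0.257). With BRZ250 the values were 324, 417 and 394 in WT and 320, 379, 339 and 400 in *baf1*, and in *bes1-D* 316, 351, 371 and 341 without and 301, 371 and 337 with BRZ. With BRZ250 the values of WT and *baf1* overlapped. PBG1, a beta-ring gene without an active site, had 122, 125, 150 and 144 in WT BRZ0 and 182, 177, 169 and 159 in *baf1* BRZ0, again with no overlap, at 0.35 ± 0.12 (adjusted p = 0.316). Under BRZ250 it had 130, 152 and 174 in WT, 118, 116, 181 and 142 in *baf1* and 118, 141 and 202 in *bes1-D*, and in *bes1-D* BRZ0 it had 144, 137, 156 and 171.

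RPN8a, a lid subunit, differed by 0.40 ± 0.14 (adjusted p = 0.357), with 87.0, 86.5, 98.2 and 115 in WT BRZ0 and 115, 114, 126 and 155 in *baf1* BRZ0. The groups met at their edges, where *baf1* replicate 2 lay below WT replicate 5. Without *baf1* BRZ0 replicate 4 the call was lost (0.30). PBB1 differed by -0.29 ± 0.13 (adjusted p = 0.467) with no overlap, and this call was lost when any of 4 libraries was left out (WT BRZ0 replicate 5, -0.18, or *baf1* BRZ0 replicates 1, 3 or 4, between -0.31 and -0.24). PAC1 and PBG1 kept their calls whichever library was left out. Without BRZ, *baf1* lay wholly above WT for 2 of the 42 genes and wholly below it for 1, against 3.68% and 2.78% of all tested genes. PBB1 overlaps another annotated gene on its own strand and PBG1 one on the opposite strand, so reads of the neighbour may be included in the value of PBB1, and in that of PBG1 if strand was not used in counting. The same holds for others, since 16 of the 42 genes overlap an annotated gene. For 3 of these, PBB1, RPT3 and RPN7, the overlap is on the same strand.

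The number of genes called in *baf1* without BRZ depended on the library left out, and ran from 2 to 9. WT BRZ0 replicate 5 was the library left out at the upper end of this range. It held the highest of all 22 values for 9 subunit genes, among them PAF1 (978) and RPT4a (156), and its estimated depth was 2.63 M reads against 3.78 to 5.16 M in the other WT BRZ0 libraries. Without it, 9 subunit genes were higher in *baf1* and 0 lower, against 7.99% and 4.67% of all genes. These were PAC1, PBG1 and RPN8a as before and in addition PBA1 (0.34), AT1G45000 (0.33), RPT4a (0.38), PBF1 (0.25), RPN7 (0.22) and RPN10 (0.24). None had an adjusted p-value under 0.05, the lowest being 0.0905 for PBA1.

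With BRZ250 the comparison of *baf1* with WT called 0 of the 42 genes, against 3.06% higher and 2.54% lower among all genes and 0.0488% at the stricter call. No subunit gene had an unadjusted p-value under 0.05 in this limma fit, the only tool run, and the log2 fold changes ran from -0.26 to 0.27, with SEs between 0.11 and 0.23. Their median was -0.01, against 0.01 over all genes. Seed storage transcripts differed strongly between these libraries (139 to 1752 normalized reads in *baf1* BRZ250 and 24 to 291 in WT BRZ250), and their part in the values of the subunit genes was not tested.

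The gain-of-function mutant *bes1-D* differed from WT by a higher level of RPN6 both without and with BRZ. RPN6 (AT1G29150, ATS9 in RefSeq) is a non-ATPase subunit of the lid. Without BRZ the libraries had 655, 685, 600 and 628 normalized reads in *bes1-D* and 352, 365, 381 and 413 in WT. With BRZ250 they had 568, 743 and 583 in *bes1-D* and 373, 391 and 384 in WT. The *baf1* libraries had 360, 401, 400 and 393 without and 347, 393, 397 and 423 with BRZ. All 7 *bes1-D* libraries, at 568 to 743, therefore lay above all 15 others, at 347 to 423. No other subunit gene separated the 7 from the 15 in this way, and 2.50% of 16331 expressed genes did, in either direction. The log2 difference was 0.76 ± 0.09 without BRZ (1.70-fold, limma adjusted p = 4.7e-05) and 0.71 ± 0.14 with BRZ250 (1.64-fold, adjusted p = 0.00186). It stayed past the stricter threshold in each of the 8 and 6 fits that left out 1 library, with adjusted p-values of at most 0.000673 and 0.0133. The log2 change of RPN6 with BRZ did not meet the criterion in any genotype. It was 0.02 ± 0.11 for WT, 0.005 ± 0.10 for *baf1* and -0.03 ± 0.12 for *bes1-D*.

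In *bes1-D* without BRZ, 3 of the 42 genes were called higher and 0 lower, where 14.2% of all tested genes were higher and 8.06% lower. At the stricter threshold 2 of the 42 passed (RPN6 and PAA2), against 7.52% of all genes. The median log2 fold change was 0.07 for the subunit genes and 0.09 for all genes. The alpha-ring gene PAA2 had 193, 223, 220 and 235 in WT BRZ0 and 264, 326, 287 and 281 in *bes1-D* BRZ0, with no overlap, at 0.41 ± 0.11 (adjusted p = 0.0301). In the other groups PAA2 had 237, 253 and 238 (WT BRZ250), 253, 231, 234 and 225 (*baf1* BRZ0), 227, 224, 224 and 262 (*baf1* BRZ250) and 273, 242 and 233 (*bes1-D* BRZ250). It met the criterion whichever library was left out, but its adjusted p-value then rose to between 0.054 and 0.127 in 6 of the 8 fits, highest without *bes1-D* BRZ0 replicate 2, and was 0.0596 with median-of-ratios size factors. AT3G26340 differed by 0.47 ± 0.18 (adjusted p = 0.141), a call lost without WT BRZ0 replicate 2 (0.43) or *bes1-D* BRZ0 replicate 4 (0.34). Without WT BRZ0 replicate 5, 8 genes were called higher and 0 lower, against 16% and 8.32% of all genes. With median-of-ratios size factors 3 were called higher and 3 lower, against 9.88% and 11.1%.

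With BRZ250, 3 subunit genes were higher in *bes1-D* than in WT (RPN6, PAG1 and PAD1) and 1 was lower (RPT5a), against backgrounds of 13.7% and 10.7%. At the stricter threshold 2 passed (RPN6 and RPT5a), against 11.1% of all genes. The median was 0.01 for the subunit genes and 0.04 for all. The alpha-ring gene PAG1 had 646, 908 and 836 in *bes1-D* BRZ250 and 540, 666 and 595 in WT BRZ250, and differed by 0.40 ± 0.15 (adjusted p = 0.0865) with overlapping groups. Its values were 573, 631, 590 and 636 in WT BRZ0, 635, 666, 663 and 648 in *baf1* BRZ0, 574, 586, 646 and 803 in *baf1* BRZ250 and 680, 675, 579 and 729 in *bes1-D* BRZ0. PAD1, another alpha gene, differed by 0.38 ± 0.15 (adjusted p = 0.11). With median-of-ratios size factors 3 genes were higher and 2 lower, against 11.6% and 12.4%. The PAG1 call was lost without WT BRZ250 replicate 1 (0.32) or *bes1-D* BRZ250 replicate 3 (0.30), and the PAD1 call without WT BRZ250 replicates 1 or 3 (0.35 and 0.31) or *bes1-D* BRZ250 replicates 3 or 5 (0.31 and 0.34).

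**Figure D4:**
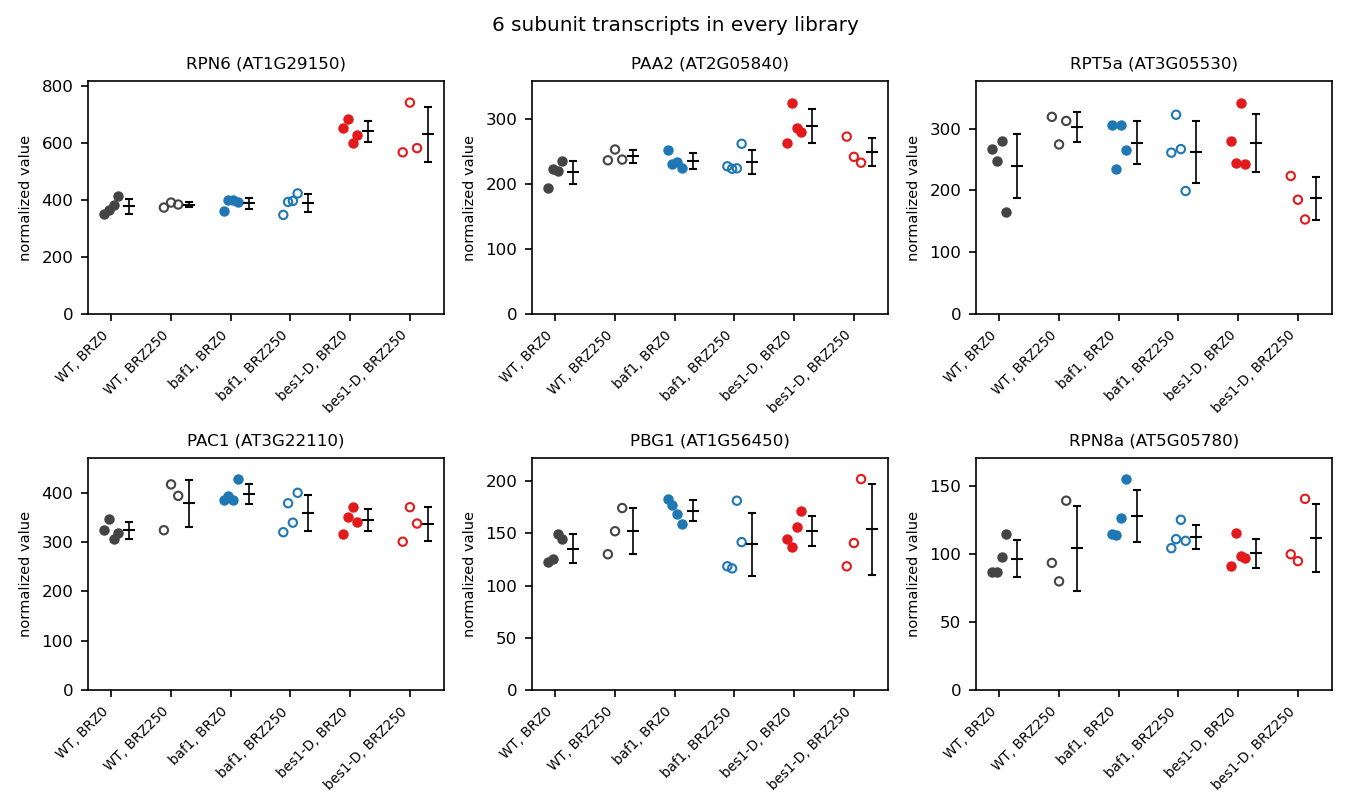
Normalized reads of RPN6, PAA2, RPT5a, PAC1, PBG1 and RPN8a in every library, by group (filled circles without BRZ, open circles with 250 nM BRZ, WT in grey, *baf1* in blue, *bes1-D* in red). The bar beside each group is the mean ± SD. For RPN6 the *bes1-D* libraries start at 568 and the others end at 423, and for PAC1 the *baf1* BRZ0 libraries lie above those of WT BRZ0.

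RPN6 lies on chromosome 1, 10180302 to 10182808 on the plus strand (RefSeq, TAIR10.1), and BES1, the gene mutated in *bes1-D*, is 3.49 Mb away on the same chromosome. Within 1 Mb of RPN6, 48 of 286 other tested genes (16.8%) had an adjusted p-value under 0.05 between *bes1-D* and WT without BRZ, 24 higher and 24 lower, against 7.35% of the remaining genes. With BRZ250 these were 60 of 290 (20.7%), 28 higher and 32 lower, against 10.9%. In *baf1* the same window held 0 of 282 and 0 of 286 such genes, where 0.13% and 0.05% of the remaining genes were called. In bins of 1 Mb, the share called without BRZ was 14.4% to 18.6% in the 5 bins from 3 Mb before RPN6 to 2 Mb after it, and 8.19% and 3.95% in the bins on either side. BES1 itself lies in the first of these, whose 8.19% was near the 7.52% of all tested genes. Among the other bins of chromosome 1 with at least 20 tested genes, the highest share was 15.53%, in the bin from 13 to 14 Mb after RPN6. AT1G24510, a TCP-1/cpn60 chaperonin gene 1.5 Mb from RPN6, also separated the genotypes, with 303 to 453 normalized reads in *bes1-D* and 482 to 804 elsewhere. The window was chosen after these values were seen. The *bes1-D* allele and any chromosome segment carried along with it cannot be told apart in these data.

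**Figure D5:**
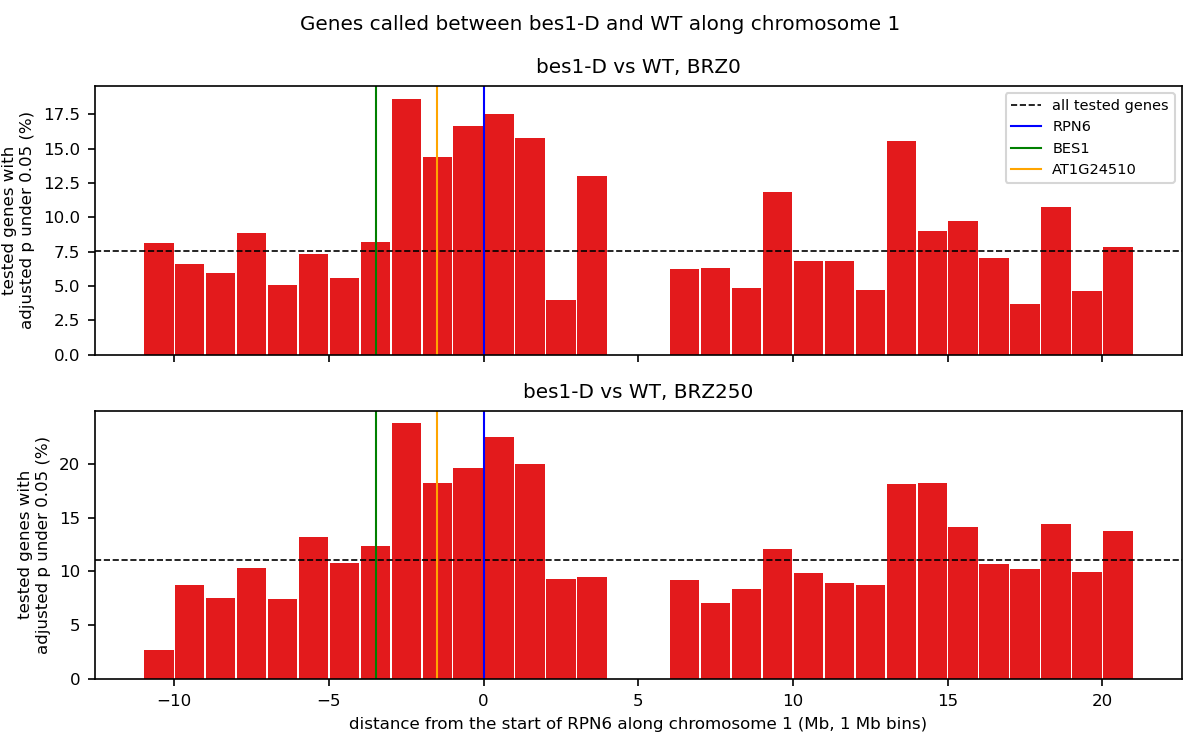
Share of tested genes with an adjusted p-value under 0.05 between *bes1-D* and WT in 1 Mb bins along chromosome 1, by distance from the start of RPN6, without BRZ (top) and with 250 nM BRZ (bottom). Bins with fewer than 20 tested genes are left out, the dashed line is the share over all tested genes (7.52% and 11.1%), and vertical lines mark RPN6, BES1 and AT1G24510. The bins from 3 Mb before to 2 Mb after RPN6 stand above the dashed line in both panels, and so do some others, such as the bin from 13 to 14 Mb after it.

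The upstream sequences of RPN6, PAA2 and RPT5a are shown because these are the 3 genes that passed the stricter threshold between *bes1-D* and WT. Each line gives the 250 bases before the annotated gene start, 5′ to 3′ on the strand of the gene (RefSeq, TAIR10.1), and capitals mark matches on either strand to TGGGC (the element bound by NAC factors that drive proteasome genes), CANNTG (the E-box) or CGTGTG and CGTGCG (the brassinosteroid response element).
RPN6, chr1:10180052-10180301, plus strand: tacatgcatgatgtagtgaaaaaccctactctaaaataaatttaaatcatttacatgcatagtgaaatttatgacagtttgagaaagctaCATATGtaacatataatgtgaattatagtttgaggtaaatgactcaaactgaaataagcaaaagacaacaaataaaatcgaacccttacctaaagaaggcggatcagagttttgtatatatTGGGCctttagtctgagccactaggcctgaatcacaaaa
PAA2, chr2:2233769-2234018, plus strand: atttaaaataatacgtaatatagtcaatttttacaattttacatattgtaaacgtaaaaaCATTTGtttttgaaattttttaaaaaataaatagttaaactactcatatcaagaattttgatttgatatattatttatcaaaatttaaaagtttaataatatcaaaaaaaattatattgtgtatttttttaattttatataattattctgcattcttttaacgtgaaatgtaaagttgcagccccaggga
RPT5a, chr3:1603109-1603358, plus strand: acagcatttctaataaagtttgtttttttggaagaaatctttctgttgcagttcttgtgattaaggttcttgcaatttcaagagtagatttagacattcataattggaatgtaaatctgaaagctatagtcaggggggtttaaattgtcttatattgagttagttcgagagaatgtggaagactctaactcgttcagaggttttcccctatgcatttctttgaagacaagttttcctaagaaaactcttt
RPN6 held 1 TGGGC, whose first base lies 39 bases before the start, and 1 E-box (CATATG) at 160 bases. PAA2 held 1 E-box (CATTTG) at 190 bases, and RPT5a held no match.

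Over the whole list, 18 of 42 subunit genes (42.9%) had at least 1 TGGGC in this window, compared with 22.7% of 27443 protein-coding genes, and 7 had 3 or more copies. An E-box was present in 21 of 42 (50%), compared with 55.3%. CGTGTG was found in 2 (4.76%, against 5.37%), PBC2 and RPT1a, and CGTGCG in 0 (against 1.57%). CANNTG can overlap the other motifs, and a match is a description of the letters only.

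RPT5a, one of the ATPases of the ring that docks on the core, had the lowest correlation with the other 41 genes (given above). It had 267, 248, 280 and 165 in WT BRZ0, 306, 234, 306 and 265 in *baf1* BRZ0 and 280, 243, 342 and 243 in *bes1-D* BRZ0. With BRZ250 it had 319, 274 and 313 in WT, 261, 323, 267 and 199 in *baf1* and 223, 185 and 153 in *bes1-D*. The 3 *bes1-D* BRZ250 libraries were below all 3 of WT BRZ250 and all 4 of *bes1-D* BRZ0. Of all tested genes, 11.6% lay wholly below in the comparison with WT BRZ250 and 5.54% in that with *bes1-D* BRZ0. The log2 difference was -0.70 ± 0.16 from WT BRZ250 (limma adjusted p = 0.00648) and -0.57 ± 0.15 from *bes1-D* BRZ0 (adjusted p = 0.0733). The first had an adjusted p-value of 0.0528 without *bes1-D* BRZ250 replicate 5 (-0.57) and met the criterion in every fit. RPT5b, its paralog at 36.4 normalized reads, was not called in any of the 7 comparisons.

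Low RPT5a was not limited to *bes1-D* BRZ250. WT BRZ0 replicate 5 (165) and *baf1* BRZ250 replicate 4 (199) were low beside their own groups. RBCS3B, which encodes a small subunit of Rubisco and is 1 of the 6 green tissue markers, was also low in these 2 libraries. The markers did not vary alike in these groups. In WT BRZ0, LHCB1.3 had a mean of 31430 ± 1610 (SD) and RBCS1A one of 22640 ± 4370. In *baf1* BRZ250, LHCB2.1 had 8740 ± 271 and RBCS1A 24860 ± 4230. RBCS3B had 6907 normalized reads in WT BRZ0 replicate 5, against 11016 to 14753 in the other libraries of that group, and 6036 in *baf1* BRZ250 replicate 4, against 11711 to 13593. In *bes1-D* BRZ250 replicates 1, 3 and 5 it had 14454, 8197 and 8940, where RPT5a was 223, 185 and 153. WT BRZ250 replicate 2, with 6757, had RPT5a at 274. The mean of RBCS3B was not lower in *bes1-D* BRZ250 (10530) than in WT BRZ250 (9266). Of the 6 markers, 1 had a log2 difference above 0 in that comparison and 5 had one below, with a median of -0.18. The 6 green tissue markers together summed to 52840 to 71501 in *bes1-D* BRZ250 and 78826 to 95096 in WT BRZ250, where LHCB1.3 and LHCB2.1 differed by -1.10 and -1.21 on the log2 scale. The sums were also low in *bes1-D* BRZ0 (69744 to 76825), where RPT5a was 243 to 342. Against WT BRZ0, LHCB1.3 (-0.44) and LHCB2.1 (-0.95) were called lower there and RBCS3B higher (0.37). Of the 6 markers, 3 had log2 differences above 0 and 3 below in that comparison without BRZ, so the sum there does not stand for the list as a whole. For BRZ in *bes1-D*, 0 of the 6 changes were above 0 and 6 below, where 50.6% of all genes were above 0. Of these, 3 were called lower, as were 8.2% of all genes. LHCB1.3 also lies near RPN6 on chromosome 1, starting at 10477885. In whole seedlings, fewer cells of a type and less RNA per cell cannot be told apart, and the part of tissue makeup in the RPT5a values was not tested.

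Among the 10 genes with profiles most like RPT5a over the 22 libraries were AT5G16470 (r = 0.93), PSAL (0.92), a photosystem I gene, ADC1 (0.92), an arginine decarboxylase gene, and the ethylene response factor gene ERF-1 (0.92). No proteasome gene was among the 10.

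BRZ alone called few subunit genes. In WT it called 1 of the 42, RPT5a, higher (0.36 ± 0.17, adjusted p = 0.484) and 0 lower, against 5.29% and 4.92% of all genes, and none at the stricter threshold, which 0.605% of genes passed. That call was lost without any 1 of 4 libraries, WT BRZ0 replicate 2 (0.38), WT BRZ0 replicate 5 (0.19), WT BRZ250 replicate 1 (0.32) or WT BRZ250 replicate 3 (0.33). The median over the 42 genes was 0.07, against 0.04. All 3 WT BRZ250 libraries were above the 4 of WT BRZ0 for PAA2, whose difference of 0.16 ± 0.12 missed the criterion. It was the only one of the 42 genes with this separation, which 5.55% of all tested genes had.

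In *baf1* BRZ called 2 subunit genes higher (PBB1 and PAD2) and 1 lower (PBG1), against 6.28% and 6.19% of all genes, with none at the stricter threshold (1.8% of all genes). PBB1 rose by 0.35 ± 0.14 (adjusted p = 0.268) and PBG1 fell by 0.32 (± 0.14, adjusted p = 0.345), each from the level that had set *baf1* BRZ0 apart from WT BRZ0, and those libraries are shared between the comparisons. PAD2, an alpha gene, had 118, 154, 128 and 128 without and 176, 130, 168 and 180 with BRZ, at 0.30 ± 0.13 (adjusted p = 0.351). Elsewhere PAD2 had 107, 156, 143 and 170 in WT BRZ0, 140, 150 and 134 in WT BRZ250, 123, 146, 149 and 163 in *bes1-D* BRZ0 and 141, 150 and 210 in *bes1-D* BRZ250. The groups overlapped for all 3 genes. Each call was lost without at least 3 of the single libraries, and 5 genes, all lower, were called without *baf1* BRZ250 replicate 4, the library with the highest seed storage sum, in a fit that called 7.41% of all genes higher and 7.21% lower. With median-of-ratios size factors 2 were higher and 2 lower, against 5.91% and 6.59%. The median of the 42 genes was -0.02, against 0.01.

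In *bes1-D* BRZ called 2 subunit genes higher (RPN12a and PBC2) and 1 lower (RPT5a), against 6.38% and 8.2%, with 0 of 42 and 0.576% of all genes at the stricter threshold. The lid subunit gene RPN12a had 299, 308, 267 and 306 without and 324, 360 and 379 with BRZ, with no overlap, at 0.26 ± 0.12 (adjusted p = 0.312). In *bes1-D* the BRZ250 libraries lay wholly above for 3 of the 42 genes and wholly below for 1, against 5.93% and 5.54% of all tested genes. Elsewhere RPN12a had 269, 315, 376 and 426 in WT BRZ0, 312, 355 and 417 in WT BRZ250, 312, 362, 350 and 374 in *baf1* BRZ0 and 307, 318, 406 and 406 in *baf1* BRZ250. The beta gene PBC2 had 258, 260, 220 and 290 without and 249, 383 and 335 with BRZ in *bes1-D*, at 0.31 ± 0.14 (adjusted p = 0.322). Its other values were 278, 290, 256 and 319 in WT BRZ0, 241, 273 and 278 in WT BRZ250, 241, 261, 282 and 286 in *baf1* BRZ0 and 264, 278, 268 and 356 in *baf1* BRZ250. Of the 7 fits without 1 library, the RPN12a call held in 1 (without *bes1-D* BRZ250 replicate 1) and the PBC2 call in 2, while RPT5a was called in all 7. The median was 0.05, against 0.003 over all genes.

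Whether the effect of BRZ differed between genotypes was tested by interaction terms over 4 groups. For *baf1*, 0 subunit genes were higher and 2 lower (PBG1 at -0.48 ± 0.20 and PAC1 at -0.37 ± 0.15), against 2.71% and 3.08% of all genes. For *bes1-D*, 1 was higher (PBC2, 0.42 ± 0.20) and 3 were lower (RPT5a, -0.93 ± 0.24, PBC1, -0.46 ± 0.20, and PAA2, -0.37 ± 0.16), against 6.17% and 7.51%. The lowest adjusted p-value was that of RPT5a, 0.093, so none of the 42 passed the stricter threshold in either interaction, where 0% and 0.239% of all genes did. Of these calls, only that of RPT5a held whichever library was left out (-1.06 to -0.75).

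Of 12 further proteasome subunit genes outside the list, 10 passed the filter on low values. In *baf1* BRZ0 2 of them, AT5G45620 (0.33) and AT4G19006 (0.29), were called higher, where 6% of all genes were, in *bes1-D* BRZ250 1, AT5G45620 (-0.64), was called lower than in WT, where 10.7% of all genes were, and 0 were called in the other 5 comparisons. Among 11 partners and regulators, UBP6, a deubiquitylating enzyme of the proteasome, was higher in *bes1-D* than in WT without BRZ (0.47 ± 0.15, adjusted p = 0.0599). AT2G26780, an ARM repeat gene, was higher there (0.63 ± 0.27) and in WT with BRZ (0.67 ± 0.29), 2 comparisons that share WT BRZ0. NAC053, a transcription factor gene, fell with BRZ in *bes1-D* (-0.62 ± 0.20, adjusted p = 0.144). Of the 11, 2 were thus called higher in *bes1-D* BRZ0, 1 higher with BRZ in WT and 1 lower with BRZ in *bes1-D*. The shares of all genes called in these directions were 14.2%, 5.29% and 8.2%. In a list of 17 ubiquitin and ubiquitin-handling genes, the polyubiquitin gene UBQ3 was lower in *bes1-D* without BRZ (-0.53 ± 0.09, adjusted p = 0.00121) and with BRZ250 (-0.89 ± 0.13, adjusted p = 0.000101), lower in *baf1* BRZ0 (-0.31 ± 0.07, adjusted p = 0.111) and higher with BRZ in *baf1* (0.38 ± 0.08, adjusted p = 0.0107). The other genes of the list that met the criterion, named after their values were seen, moved both ways. UBQ10 was lower in *bes1-D* (-0.29) and in *baf1* (-0.17) without BRZ, and CDC48B, a CDC48-type ATPase gene, was lower in *baf1* BRZ0 (-0.53) and higher with BRZ in *baf1* (0.43). CDC48A was higher with BRZ in *baf1* (0.31) and *bes1-D* (0.29). DDI1 was higher (0.64) and UBQ4 lower (-0.32) with BRZ in *bes1-D*, and UBQ11 was higher in *bes1-D* BRZ250 than in WT (0.30). Of the 17, 3 were called lower in *baf1* BRZ0 (4.27% of all genes), 2 lower in *bes1-D* BRZ0 (8.06%) and 3 higher with BRZ in *baf1* (6.28%). With BRZ in *bes1-D* 2 were higher (6.38%) and 1 lower (8.2%). In *bes1-D* BRZ250 against WT 1 was higher (13.7%) and 1 lower (10.7%), and 0 were called in the remaining comparisons of pairs of groups. The polyubiquitin genes repeat 1 coding unit, so their reads may be split between copies. Of 9 COP9 signalosome genes tested, whose complex resembles the lid, 0 to 1 were called in each of the 7 comparisons, and of 9 CCT chaperonin genes 0 to 2. Adding both directions, the share of all genes called was smallest for *baf1* against WT with BRZ250 (3.06% higher and 2.54% lower). It was largest for *bes1-D* against WT with BRZ250 (13.7% higher and 10.7% lower). With 9 genes per list, the counts are descriptions only.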

How the data were processed

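Polyadenylated 3′ ends of whole seedlings were sequenced by QuantSeq in 22 libraries of 6 groups. The deposited table holds normalized read signal per gene, which the authors made with STAR, HTSeq and edgeR (tools named in the submitters' processing notes, versions not given in the sources used here) on TAIR10, with TMM scaling named for the table. The values are not whole numbers, so no count model was used as the main test. 0 columns were left unused. The study's methods name the Lexogen QuantSeq FWD pipeline on the BlueBee platform, a forward-strand protocol, but do not give the strand setting of the counting. Depth was estimated from the steps of low values (2.12 to 5.16 M reads per library), and it limits the precision of genes of low level.

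Values were analysed as log2(value + 1) in R 4.3.3 with limma 3.58.1 (empirical Bayes with a trend), fitting the groups compared, keeping genes whose mean was 10 or more, and p-values were adjusted over all genes tested. Fold changes are on the log2(value + 1) scale. The criterion followed the study (unadjusted p under 0.05, fold above 1.1). The fits were also run on simulated data with a single dispersion and no differences in depth or outlying libraries. That run does not give the error rate in these data.

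The 42 members and all gene lists were chosen with earlier results of these data known. Values in every library are given for the 2 members of smallest p per direction among those called in each comparison of a pair of groups, for the active-site subunits, RPN10, AT5G23540, RPT2a and RPT2b, and, chosen after its values were seen, for RPN8a in WT and *baf1* without BRZ. Coordinates, promoters and gene names are from RefSeq (TAIR10.1), read with Biopython 1.88. 1 upstream sequence is not reported here. Replicate numbers were not taken to pair the samples, since no source says that they mark a shared batch. The correlation of same-numbered deviations ran from -0.206 to 0.261. For replicate 1 it was above 0 in every comparison (0.045 to 0.261), as described below, and the main fits do not model this. Alternatives were the pseudocount, the filter, the scaling, a fit to all libraries, a replicate block, stricter thresholds and leaving out each library.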

Additional observations from a re-analysis of the deposited data

Results flagged for a closer look

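In 168 groups of 4 libraries (42 genes in 4 groups), 8 had a highest or lowest library far from the other 3 by Dixon's criterion, where chance gives about 8.4 at 1 in 20. WT BRZ0 replicate 5 was highest for PBB1 (192 normalized reads, the others 138 to 143), PBD2 (301, the others 223 to 234) and RPT2a (435, the others 358 to 369). *baf1* BRZ250 replicate 4 was highest for PAA2 (262, the others 224 to 227) and PBC2 (356, the others 264 to 278). The remaining 3 were PAB1 in *baf1* BRZ0 replicate 1 (83.4, the others 94.6 to 95.1), RPT3 in *baf1* BRZ0 replicate 4 (473, the others 426 to 431) and PAF2 in *baf1* BRZ250 replicate 3 (65.6, the highest of the others 80.4).

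The effect of BRZ differed between genotypes for 6 combinations at an unadjusted p-value under 0.05 in limma's interaction term. Against WT, the log2 change with BRZ differed in *baf1* by -0.37 for PAC1 and -0.48 for PBG1. In *bes1-D* it differed by -0.37 for PAA2, -0.46 for PBC1, 0.42 for PBC2 and -0.93 for RPT5a. None had an adjusted p-value under 0.05, and the lowest was 0.093 for RPT5a.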

How the results depend on the processing

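All 434 alternative values of the 24 calls of single genes kept their direction, and 315 also kept their side of the criterion, while 119 did not. Of 161 alternative counts of subunit genes called, 103 stayed within 1.5 times the reported count, 17 were larger and 41 smaller. With each library left out in turn, the count ran from 2 to 9 for *baf1* against WT and from 2 to 8 for *bes1-D* against WT without BRZ, from 0 to 2 and from 2 to 5 for the same with BRZ250, from 0 to 2, 1 to 5 and 1 to 5 for BRZ in WT, *baf1* and *bes1-D*, and from 1 to 4 and 1 to 6 for the interactions of *baf1* and *bes1-D*. A replicate block gave 8 genes, all higher, for *baf1* (8.17% of all genes higher) and 9, all higher, for *bes1-D* (16.8%) against WT without BRZ, 3 for BRZ in WT, 1 for BRZ in *bes1-D*, and 4 and 2 for the interactions. The numbers are not stated to pair the samples. Replicate 1 deviated alike in the groups compared (r from 0.045 to 0.261 in the 7 comparisons, over 0.1 in 5) and had the lowest sum of the 42 genes in each of the 6 groups, while the other numbers had r from -0.206 to 0.123. The block sets aside any library whose number occurs in 1 group only, such as WT BRZ0 replicate 5. A fold change above 1.5 left 0 genes for *baf1* against WT without BRZ, for BRZ in each of the 3 genotypes and for the *baf1* interaction, 1 (RPN6) for *bes1-D* against WT without BRZ, 2 (RPN6 and RPT5a) with BRZ250 and 1 (RPT5a) for the *bes1-D* interaction. An adjusted p-value under 0.05 left 2 for *bes1-D* against WT with BRZ250 and 0 for *baf1* without BRZ, for BRZ in each genotype and for both interactions. Median-of-ratios size factors called 6 genes for *bes1-D* without BRZ (3 higher and 3 lower) and 0 for BRZ in WT, a mean of at least 50 called 0 for BRZ in WT, and the fit to all 22 libraries called 2 for *baf1* with BRZ250. The cause of these differences was not tested. Counts given here without a share of all genes are not read as a change in the subunit genes. Genes of low level such as RPT5b and AT3G26340 are limited by depth.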
